A study of Mus musculus with 5 samples.

Results

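The genes described here were 10 of the 20178 transcripts counted in cultured mouse brain cells, namely Fkbp5, Tsc22d3, Per1, Dusp1, Zbtb16, Klf9, Ddit4, Errfi1, Pdk4 and Hif3a. They were chosen by symbol as genes widely known to be induced by glucocorticoids, and each was matched to 1 RefSeq transcript of the deposited tables. mRNA-seq was available for 5 libraries, 1 per condition, all from mice of the ICR strain at passage 2. The 3 ventral midbrain (VM) libraries came from astrocyte cultures of pups at postnatal day 5, which the labels call astrocyte progenitor cells. One of these has no virus entry (VM astrocytes), 1 is titled C (VM-C) and 1 is titled NF (VM-NF). The 2 cortical (Ctx) libraries came from astrocytes of pups at postnatal day 5 (Ctx-astrocytes) and from neural progenitor cells of E12 embryos (Ctx-NPCs). According to the study's methods, the lentiviral vectors carried a CMV promoter and Nurr1 or Foxa2, or no insert as the mock virus. Nurr1 and Foxa2 are transcription factors of midbrain dopamine neuron development.

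The labels of the transduced libraries contradict each other. The treatment entry gives the Nurr1 and Foxa2 viruses for the library titled C and the mock virus for the library titled NF. Libraries are named by their titles throughout, and every direction between VM-C and VM-NF is attributed to the opposite virus if the entries are right. Reads of Nr4a2, the gene of Nurr1, numbered 81 in VM astrocytes, 53 in VM-C and 183 in VM-NF, and those of Foxa2 numbered 68, 15 and 216. Of the VM libraries, both genes were therefore most abundant in the one titled NF, at 8.998 CPM for Nr4a2 and 10.62 CPM for Foxa2. Ctx-astrocytes held 106 reads of Nr4a2 and 1 of Foxa2. The study's methods list the Foxa2 insert as rat, although they also call the inserts mouse genes. Whether the reads came from the viruses was not tested, so they do not settle which label is right.

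Glucocorticoids cross the cell membrane and bind the glucocorticoid receptor (Nr3c1), which is held ready by Hsp90 and its co-chaperones. The bound receptor enters the nucleus and activates genes that carry its response elements, many of which restrain inflammation, growth factor signalling and the hormone response itself. Astrocytes express the receptor and are known as glucocorticoid-responsive cells. Whether the culture media held a glucocorticoid is not given in the sources used here, and several of these genes also answer to serum, cAMP, low oxygen, fasting or the clock.

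The 10 genes did not behave as one block. In VM-C, 8 of them had the lowest level of the 3 VM libraries, whereas Fkbp5 and Errfi1 had their highest there. VM-C was at an extreme for most transcripts, the lowest for 43.1% of 12791 and the highest for 42.6%. In VM-NF the 10 genes stood close to VM astrocytes, and none differed by 2-fold. Few of all 12428 tested transcripts did, 0.322% higher and 0.668% lower. Fkbp5 varied least over the 5 libraries, with a highest level 1.48-fold above its lowest, and Dusp1 most, at 18.4-fold. With 1 library per condition, no difference has a replicate check and no test of a condition was possible. Each log2 ratio below compares reads per library total, and its exact (Clopper-Pearson) 95% interval covers counting error only.

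Reads per library lay between 20010818 and 22554835, which puts 3 reads, taken as the limit of a count of 0, at 0.133 to 0.150 CPM, the reads of a gene scaled to a common library total. All 10 genes were far above it. The most precise value was Dusp1 in VM-NF (8639 reads, 425 CPM, interval 416 to 434) and the least precise Zbtb16 in Ctx-NPCs (75 reads, 3.75 CPM, interval 2.95 to 4.70). The cultures were mixed by their markers. The summed level of 13 microglial markers was 345 CPM in VM astrocytes, 1264 in VM-C, 259 in VM-NF, 142 in Ctx-astrocytes and 27.3 in Ctx-NPCs. The defining marker Trem2 had 0 reads in Ctx-NPCs. The 12 astrocyte markers summed to between 1814 CPM (VM-C) and 11820 CPM (Ctx-NPCs). The library labelled neural progenitor cells held 122531 reads of Gfap and 75411 of Mbp, markers of astrocytes and of oligodendrocytes, beside 13357 of the progenitor marker Nes. Of 8 progenitor markers tested, 4 were higher there by 2-fold than in Ctx-astrocytes and 0 lower, beside 20.1% and 17.9% of transcripts. In bulk samples, fewer cells of a type and less RNA per cell cannot be told apart.

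Promoter letters were read to show where the genes differ in sequence. RefSeq windows on GRCm38.p6, from 250 bases before to 50 after a start, existed for 9 of the 10 genes, Zbtb16 being the exception. The receptor binds inverted repeats of a half-site, and the half-site letters AGAACA or TGTTCT lie in 19% of all 32851 windows. The 9 genes have 13 windows, of which 1 held them, in Tsc22d3. The exact inverted repeat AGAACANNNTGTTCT was in 3 of all windows (0.00913%) and in none of these genes. The E-box CACGTG, bound by clock factors among others, lies in 7.15% of windows and in 3 of the 13, for Fkbp5, Per1 and Dusp1. The cAMP response element core TGACGTCA lies in 1.79% of windows and in 2 of the 13, for Dusp1 and Errfi1. Its half-site, TGACG or CGTCA, lies in 20.8% of windows and in 6 of the 13, for 5 genes. The hypoxia element letters ACGTG or GCGTG, on either strand and overlapping the E-box, lie in 43.8% of windows. They were in 11 of the 13, with a match for each of the 9 genes. A match is a description of letters and not a binding site, and no match says only that the letters are not in this window.
The 5 stretches below are those with a receptor half-site, an E-box or a full cAMP element, each 60 bases upstream of a RefSeq start and read 5′ to 3′ on the gene's strand. Capitals mark the matched letters. By GENCODE the stretch of Tsc22d3 overlaps no gene, and the other 4 lie within their own gene's span but in no exon. In order they are at chrX:140600675-140600734 (minus strand), chr17:28486286-28486345 (minus), chr11:69098756-69098815 (plus), chr17:26508575-26508634 (minus) and chr4:150854993-150855052 (plus) of GRCm38.
Tsc22d3: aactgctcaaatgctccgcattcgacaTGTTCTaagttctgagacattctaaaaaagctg
Fkbp5: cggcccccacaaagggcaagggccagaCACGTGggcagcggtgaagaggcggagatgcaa
Per1: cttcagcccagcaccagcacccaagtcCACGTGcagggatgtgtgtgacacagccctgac
Dusp1: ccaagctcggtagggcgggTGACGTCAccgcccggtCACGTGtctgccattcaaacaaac
Errfi1: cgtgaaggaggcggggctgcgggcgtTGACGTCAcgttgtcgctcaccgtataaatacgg

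Fkbp5 (NM_010220, chr17:28398753-28486149, minus strand) encodes a co-chaperone of Hsp90 that lowers the receptor's affinity for hormone and is among its best known feedback targets. It had 1373 reads in VM astrocytes, 2157 in VM-C, 1342 in VM-NF, 1526 in Ctx-astrocytes and 1483 in Ctx-NPCs, or 64.5, 95.6, 66.0, 71.2 and 74.1 CPM. VM-C stood above the other 4 libraries, which lay close together. VM-NF was lower than VM-C by a log2 ratio of -0.54 (-0.64 to -0.44). Ctx-NPCs and Ctx-astrocytes, and VM-NF and VM astrocytes, were not separated beyond counting error.

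Tsc22d3 (NM_001077364, chrX:140539528-140600522, minus strand) encodes GILZ, a leucine zipper protein that restrains NFκB and AP-1 and carries part of the anti-inflammatory action of glucocorticoids. It had 793 reads in VM astrocytes, 476 in VM-C, 810 in VM-NF, 853 in Ctx-astrocytes and 605 in Ctx-NPCs, or 37.2, 21.1, 39.8, 39.8 and 30.2 CPM. VM-C was the lowest of the 5, the opposite place to that of Fkbp5. The log2 ratio of VM-NF over VM-C was 0.92 (0.75 to 1.08), short of 2-fold. VM-NF and Ctx-astrocytes, and Ctx-astrocytes and VM astrocytes, were not separated beyond counting error, and Ctx-NPCs lay below them by more.

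The contrast between Fkbp5 and Tsc22d3 shows in their ratio within a library, which needs no scaling between libraries. On the FPKM scale, which divides by transcript length, Fkbp5 over Tsc22d3 was 0.957 in VM astrocytes, 0.915 in VM-NF and 0.988 in Ctx-astrocytes. It was 2.50 in VM-C and 1.35 in Ctx-NPCs.

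**Figure D1:**
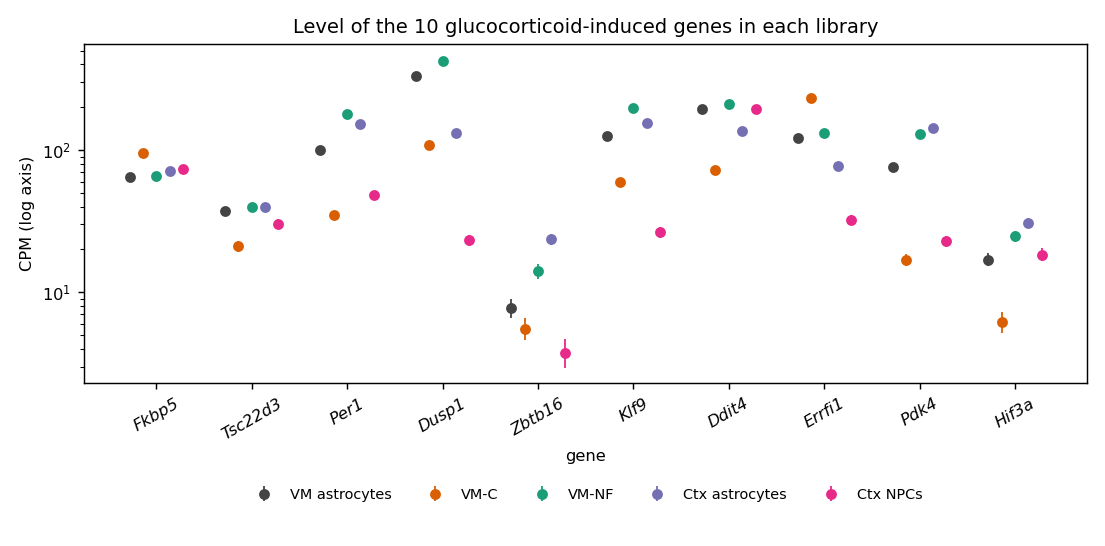
Level of each of the 10 genes in the 5 libraries, in CPM on a log axis, with exact 95% intervals of the counts. VM-C (orange) is the highest point for Fkbp5 (95.6 CPM) and Errfi1 (232 CPM) and the lowest VM point for the other 8 genes.

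Dusp1 and Errfi1 encode brakes on growth factor signalling. Dusp1 (NM_013642, chr17:26505591-26508472, minus strand) is a phosphatase that inactivates p38, JNK and ERK. It had 7009 reads in VM astrocytes, 2437 in VM-C, 8639 in VM-NF, 2844 in Ctx-astrocytes and 463 in Ctx-NPCs, or 169.08, 55.52, 218.27, 68.18 and 11.89 FPKM. It was the most abundant of the 10 genes per length in VM astrocytes and VM-NF, and all 5 libraries were separated by more than counting error. The log2 ratio of VM-NF over VM-C was 1.98 (1.91 to 2.04). An exon of Dusp1 overlaps Ergic1 on the other strand, and the strand setting of the counting is not given in the sources used here. Ergic1 had 281 CPM in VM astrocytes, 255.5 in VM-C and 297 in VM-NF, and its part in the Dusp1 reads was not tested.

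Errfi1 (NM_133753, chr4:150853796-150868889, plus strand) encodes MIG6, an inhibitor that binds the EGF receptor kinase. It had 2606 reads in VM astrocytes, 5237 in VM-C, 2696 in VM-NF, 1650 in Ctx-astrocytes and 650 in Ctx-NPCs. Its level in VM-C, 232 CPM, exceeded every other library, and the next was VM-NF at 133 CPM. VM-C over VM astrocytes gave a log2 ratio of 0.92 (0.86 to 0.99), just under 2-fold. Both promoters printed above hold the cAMP element core, and the genes stood at opposite places in VM-C. The FPKM ratio of Errfi1 over Dusp1 was 0.239 in VM astrocytes, 0.201 in VM-NF and 0.374 in Ctx-astrocytes, against 1.38 in VM-C and 0.904 in Ctx-NPCs.

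Per1, Klf9, Zbtb16 and Hif3a encode transcriptional regulators. Per1 (NM_011065, chr11:69095108-69109965, plus strand), a repressor of the circadian clock, had 2133 reads in VM astrocytes, 784 in VM-C, 3667 in VM-NF, 3287 in Ctx-astrocytes and 968 in Ctx-NPCs. The levels were 100.1, 34.8, 180.3, 153 and 48.4 CPM, so VM-C and Ctx-NPCs were the low libraries. VM-NF over VM-C gave a log2 ratio of 2.37 (2.26 to 2.49). VM-NF was also above VM astrocytes, by 0.85 (0.77 to 0.93).

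Klf9 (NM_010638, chr19:23141226-23168129, plus strand) is a zinc finger factor that restrains proliferation of neural cells. It had 2674 reads in VM astrocytes, 1339 in VM-C, 4049 in VM-NF, 3332 in Ctx-astrocytes and 527 in Ctx-NPCs, or 125.5, 59.4, 199, 155 and 26.3 CPM. Its order over the libraries was that of Per1 except at the bottom, where Ctx-NPCs lay below VM-C. VM-NF over VM-C gave a log2 ratio of 1.75 (1.66 to 1.84).

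Zbtb16 (NM_001033324, chr9:48651797-48836225, minus strand) encodes PLZF, a zinc finger repressor active in progenitor cells. It had the fewest reads of the 10 genes in every library, with 165 in VM astrocytes, 125 in VM-C, 285 in VM-NF, 505 in Ctx-astrocytes and 75 in Ctx-NPCs. Ctx-astrocytes held most and Ctx-NPCs least. The log2 ratio of VM-NF over VM-C was 1.33 (1.03 to 1.65).

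Hif3a (NM_001162950, chr7:17030993-17062427, minus strand) encodes HIF-3α, whose shorter forms restrain the response to low oxygen. Reads of its isoforms cannot be told apart in 1 count per transcript. It had 361 reads in VM astrocytes, 139 in VM-C, 505 in VM-NF, 659 in Ctx-astrocytes and 368 in Ctx-NPCs. VM-C was the lowest, and Ctx-NPCs and VM astrocytes were not separated beyond counting error. The log2 ratio of VM-NF over VM-C was 2.01 (1.74 to 2.29).

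Ddit4 and Pdk4 act on metabolism. Ddit4 (NM_029083, chr10:59949675-59951770, minus strand) encodes REDD1, an inhibitor of mTORC1. It had 4113 reads in VM astrocytes, 1634 in VM-C, 4297 in VM-NF, 2902 in Ctx-astrocytes and 3909 in Ctx-NPCs. VM-C was the low library, and Ctx-NPCs exceeded Ctx-astrocytes, which among the other 9 genes was so for Fkbp5 alone, by less than counting error. The log2 ratio of VM-NF over VM-C was 1.54 (1.46 to 1.63).

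Pdk4 (NM_013743, chr6:5483351-5496278, minus strand) encodes the kinase that shuts pyruvate dehydrogenase during fasting. It had 1614 reads in VM astrocytes, 382 in VM-C, 2624 in VM-NF, 3085 in Ctx-astrocytes and 456 in Ctx-NPCs, or 75.8, 16.9, 129, 144 and 22.8 CPM. VM-C and Ctx-NPCs were low and the other 3 libraries high. VM-NF over VM-C gave a log2 ratio of 2.93 (2.77 to 3.09), a 7.61-fold difference and the largest of the 10 genes between these libraries.

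The comparison of VM-NF with VM-C addresses the transduction of Nurr1 and Foxa2. At 2-fold and FPKM above 1 in at least 1 of the 2 libraries, 7 of the 10 genes were higher in VM-NF and 0 lower, against 9.53% of 12701 transcripts higher and 9.73% lower. Hif3a passed the FPKM filter only through VM-NF, since it stood at 0.89 FPKM in VM-C, and the other 9 passed in both. The median log2 ratio was 1.64 for the 10 genes and -0.02 for all transcripts. The 3 genes short of 2-fold were Tsc22d3 (0.92), Fkbp5 (-0.54) and Errfi1 (-0.81).

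The library without virus was the reference for both transduced libraries. VM-C against VM astrocytes had 6 genes lower by 2-fold and 0 higher, where 8.48% of 12703 transcripts were lower and 7.3% higher. The 6 were Pdk4 (log2 ratio -2.16, the furthest from 0), Dusp1 (-1.61), Per1 (-1.53), Hif3a (-1.46), Ddit4 (-1.41) and Klf9 (-1.08), with Hif3a passing the filter only through VM astrocytes. Tsc22d3 (-0.82) and Zbtb16 (-0.48) were lower by less, and Errfi1 (0.92) and Fkbp5 (0.57) were higher. The median log2 ratio was -1.25, against -0.01 for all transcripts. VM-C was the lowest of the 3 VM libraries for 8 of the 10 genes, as for 43.1% of 12791 transcripts, and the highest for 2, as for 42.6%.

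VM-NF against VM astrocytes had 0 genes higher and 0 lower by 2-fold, where 0.322% of 12428 transcripts were higher and 0.668% lower. The differences were small, with a median log2 ratio of 0.46, against -0.05 for all transcripts. For 8 of the 10 the whole counting interval lay above 0, which held for 24.1% of transcripts. Fkbp5 (0.03, interval -0.08 to 0.14) and Tsc22d3 (0.10, interval -0.05 to 0.24) were the exceptions. At 1.5-fold 4 genes were higher, Per1 (0.85), Zbtb16 (0.85), Pdk4 (0.77) and Klf9 (0.67), where 2.57% of transcripts were. VM-NF was the highest of the 3 VM libraries for 8 genes, as for 29.5% of transcripts. These 3 comparisons share libraries, so their values are not independent of each other.

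**Figure D2:**
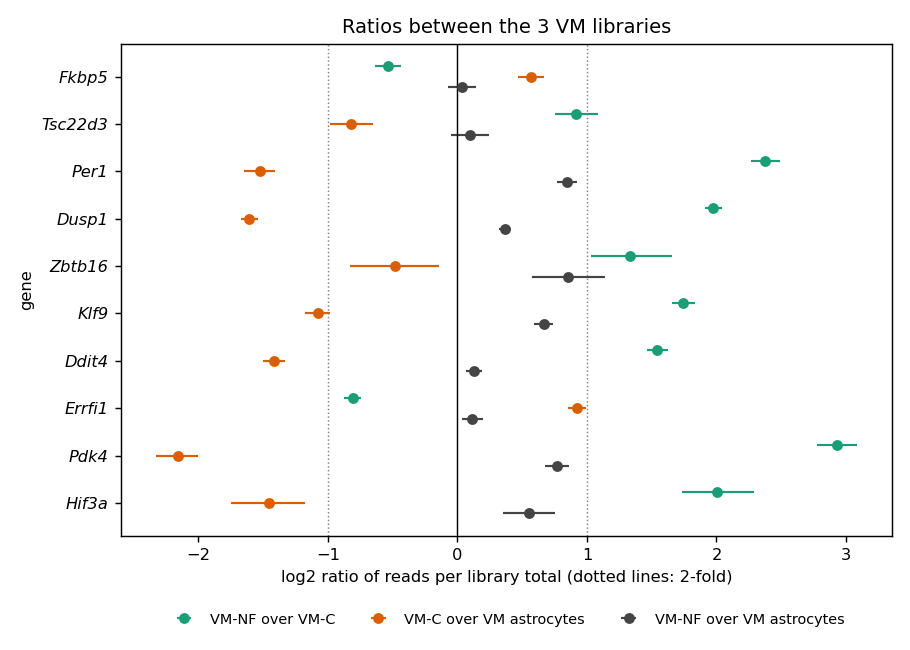
Log2 ratios of the 10 genes between the 3 VM libraries, with exact 95% intervals that cover counting error only and dotted lines at 2-fold. For the 6 genes lower by 2-fold in VM-C the orange points lie left of the dotted line (Pdk4 at -2.16), while the dark points of VM-NF over VM astrocytes lie between 0.03 and 0.85.

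**Figure D3:**
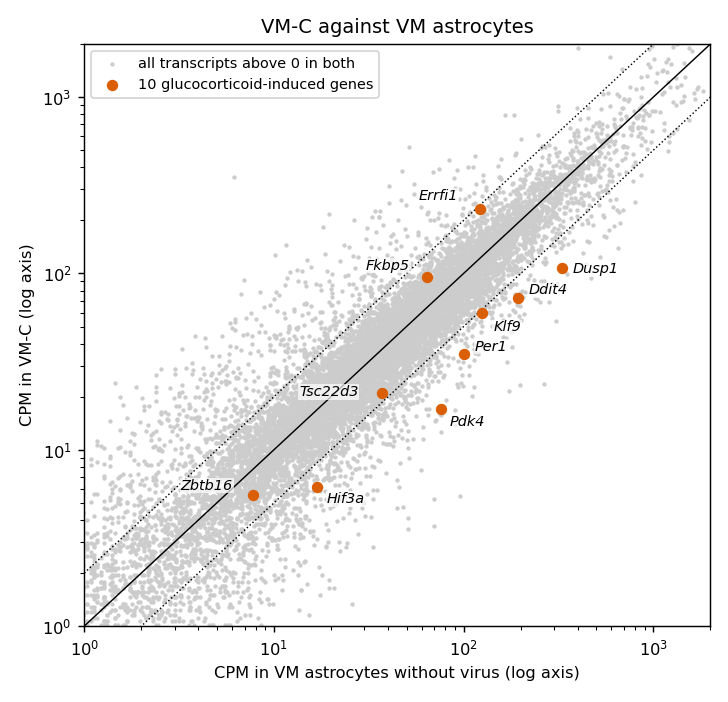
CPM of every transcript in VM-C against VM astrocytes, both on log axes, with lines of equality and of 2-fold. Fkbp5 and Errfi1 lie above the line of equality and the other 8 genes below it, from Pdk4 (16.9 against 75.8 CPM) to Zbtb16 (5.54 against 7.75 CPM).

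Markers of other cell types moved with VM-C. Against VM astrocytes, 11 of 12 tested microglial markers and 7 of 8 oligodendrocyte markers were higher in VM-C by 2-fold, and 4 of 4 ependymal markers were lower, beside 7.3% of transcripts higher and 8.48% lower. Cx3cr1, Mog, Ugt8a and Opalin passed the FPKM filter only through VM-C, and the ependymal genes Ccdc153 and Pifo only through VM astrocytes. The ependymal list summed to 333 CPM in VM astrocytes, 62.6 in VM-C and 314 in VM-NF, and the oligodendrocyte list to 269.5, 425.5 and 216 CPM. Of the oligodendrocyte sums, Cnp made up 214.7, 164.4 and 190.7 CPM, and it was lower in VM-C, unlike the other tested markers of that list. Fibroblast and mural markers were split, with 3 of 8 lower, 0 higher and 4 of 8 above 0. Their sums, 3627, 2136 and 3591 CPM, follow Col1a1, Col1a2 and Acta2, while Col3a1, Dcn, Lum and Pdgfrb went the other way. Neuronal markers were higher in 5 of 7, with Snap25 and Nefl passing the filter only through VM-C, although their sums of 713, 605 and 617 CPM follow the abundant Stmn2. Of 7 progenitor markers 0 were higher and 0 lower, and their sums of 1541, 2482 and 1473 CPM follow Nes. Oligodendrocyte precursor markers were higher in 4 of 6, with Gpr17 passing only through VM-C (sums 357, 732 and 325 CPM). Endothelial markers were higher in 2 and lower in 1 of 3, the lower one, Kdr, passing only through VM astrocytes (sums 67.7, 135 and 79.9 CPM). The part of these cell types in the levels of the 10 genes was not tested.

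The receptor itself, Nr3c1, stood at 17.56 FPKM in VM astrocytes, 16.80 in VM-C, 23.11 in VM-NF, 22.34 in Ctx-astrocytes and 10.73 in Ctx-NPCs. VM-C and VM astrocytes differed by a log2 ratio of -0.06 (-0.15 to 0.02), within counting error, while VM-NF was above VM-C by 0.46 (0.38 to 0.54). Nr3c2, the mineralocorticoid receptor, which also binds glucocorticoids, was scarcer per length, at most 3.0 FPKM, with 4.93, 12.3, 8.01, 10.9 and 2.10 CPM, and was highest in VM-C. Hsd11b1, the enzyme that regenerates active hormone inside cells, had 86, 100, 82, 29 and 0 reads, and Hsd11b2, which inactivates it, had at most 17 reads in any library. Fkbp4, the co-chaperone that Fkbp5 opposes, had 2153 reads in VM astrocytes, 2450 in VM-C and 1569 in VM-NF. Of 12 tested genes of the receptor, enzyme and chaperone list, 0 were higher and 0 lower by 2-fold in VM-NF over VM-C, beside 9.53% and 9.73% of transcripts. In a list of 12 these counts lie near the shares of all transcripts and are no result about the list. Its median log2 ratio was -0.18.

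Other known glucocorticoid targets were also divided. Of 28 listed, 24 were tested in VM-NF over VM-C, and 7 were higher and 4 lower by 2-fold, with a median log2 ratio of 0.45, beside 9.53% of transcripts higher and 9.73% lower. Tat and Pck1, liver enzymes of amino acid and glucose metabolism, had 0 reads in all 5 libraries. Cdkn1c, a cell cycle inhibitor, had 401 reads in VM astrocytes, 63 in VM-C and 499 in VM-NF. Plin4, a lipid droplet protein, had 149, 26 and 128 reads and passed the FPKM filter only through VM-NF. Both were low in VM-C, like Pdk4.

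Sgk1, the kinase at the centre of the study, took the opposite place. It had 3319 reads in VM astrocytes, 7977 in VM-C, 2947 in VM-NF, 1574 in Ctx-astrocytes and 4067 in Ctx-NPCs. Its log2 ratio of VM-C over VM astrocytes was 1.18 (1.12 to 1.24), the side on which Fkbp5 and Errfi1 lay. Gpd1, the glycerol phosphate dehydrogenase of oligodendrocytes and fat, had 447, 1355 and 344 reads in the VM libraries and was likewise highest in VM-C. The FPKM ratio of Sgk1 over Tsc22d3 was 2.89 in VM astrocytes, 11.6 in VM-C, 2.51 in VM-NF, 1.27 in Ctx-astrocytes and 4.64 in Ctx-NPCs.

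Genes of other inputs known to reach these members were counted in the same way. Of 12 tested genes induced by FoxO factors or fasting, 6 were higher and 0 lower in VM-NF over VM-C, beside 9.53% and 9.73% of transcripts, with a median log2 ratio of 0.97. Among them, Klf15 (567 reads in VM astrocytes, 90 in VM-C and 675 in VM-NF) is itself a glucocorticoid target, Irs2 is an adaptor of the insulin receptor and Bcl2l11 encodes the death factor BIM. Their log2 ratios were 3.05, 1.82 and 1.26. Of 14 tested clock genes, 5 were higher and 0 lower, beside the same shares, with a median of 0.85, including the clock output factor Dbp (2.09) and the nuclear receptor Nr1d1 (1.94).

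The other lists were split in sign. Of 18 tested immediate early genes, 6 were higher and 5 lower in VM-NF over VM-C, beside 9.53% and 9.73% of transcripts, with a median of -0.02. The antiproliferative factor Btg2 (2.79) and the zinc finger factor Egr1 (2.38) were higher, and its relative Egr3, which passed the filter only through VM-C, was lower (-2.20). Of 14 genes induced by low oxygen, 2 were higher, Ndrg1 (1.44) and Adm (1.36), and 1 lower, Ankrd37 (-1.42), with a median of 0.04. The low-oxygen counts lie near the shares of all transcripts and are no result about that list.

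**Figure D4:**
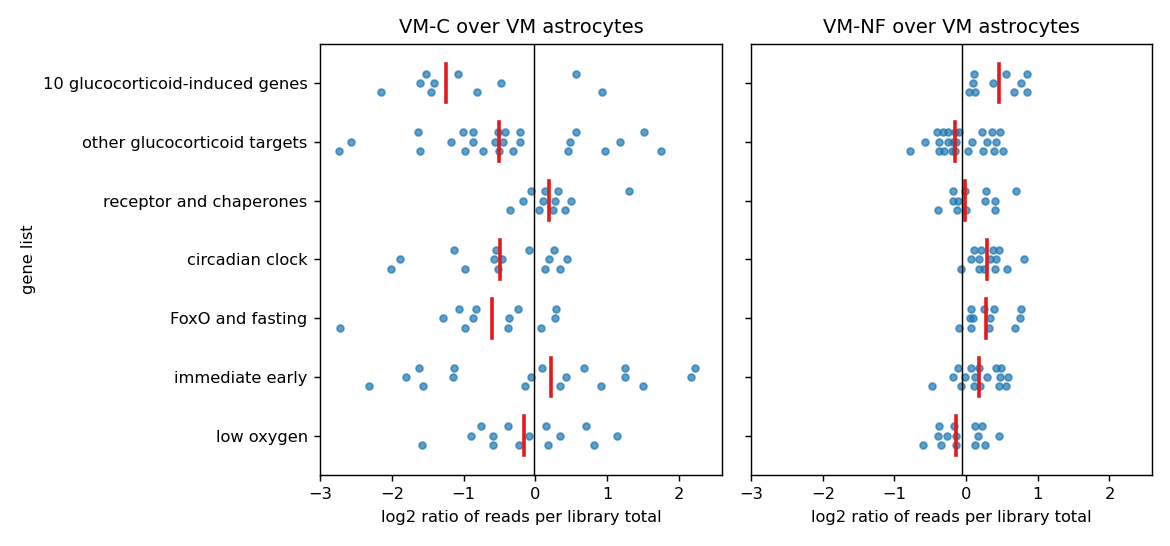
Log2 ratios of VM-C (left) and of VM-NF (right) over VM astrocytes for the 10 genes and 6 other lists, 1 point per tested gene, with list medians in red and the median of all transcripts as the black line. The 10 genes have a median of -1.25 on the left and 0.46 on the right, and the receptor and chaperone list stands near 0 in both panels (0.19 and -0.01).

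The cortical libraries address region and cell type. Ctx-astrocytes over VM astrocytes had 1 gene higher by 2-fold, Zbtb16 (log2 ratio 1.60, interval 1.35 to 1.87), and 1 lower, Dusp1 (-1.31, interval -1.37 to -1.25). Of 12553 transcripts, 4.49% were higher and 9.89% lower. Pdk4 (0.93), Hif3a (0.86) and Per1 (0.61) were higher by less, and Errfi1 (-0.67) and Ddit4 (-0.51) were lower. The median log2 ratio was 0.23 for the 10 genes and -0.05 for all transcripts. The markers differed as well. Of 11 tested microglial markers, 10 were lower by 2-fold and 0 higher, with Aif1 and Ptprc passing the FPKM filter only through VM astrocytes. Of 11 astrocyte markers 7 were higher and 0 lower, and of 7 progenitor markers 4 were lower and 0 higher. Region and cell mix differ together between these cultures and cannot be told apart.

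Ctx-NPCs over Ctx-astrocytes had 6 genes lower by 2-fold and 0 higher, where 17.9% of 12623 transcripts were lower and 20.1% higher. The 6 were Pdk4 (-2.66), Zbtb16 (-2.64), Klf9 (-2.56), Dusp1 (-2.52), Per1 (-1.66) and Errfi1 (-1.24). Zbtb16 passed the FPKM filter only through Ctx-astrocytes. Hif3a (-0.74) and Tsc22d3 (-0.40) were lower by less. Ddit4 was higher (0.53, interval 0.46 to 0.60). Fkbp5 differed by 0.06 (-0.05 to 0.16), and its sign turned under all 3 other scalings, which moved the median of all transcripts, 0.19 here, by -0.167 to -0.185. Cell type and age differ together between these cultures and cannot be told apart. The astrocyte markers summed to 6015 CPM in Ctx-astrocytes and 11820 in Ctx-NPCs, and the oligodendrocyte markers to 311 and 7756 CPM. Of the oligodendrocyte sums, Cnp made up 287 and 1699 CPM. Of 10 tested neuron markers, 8 were higher by 2-fold in Ctx-NPCs and 1 lower. Of 6 oligodendrocyte precursor markers, 5 were higher and 0 lower. The precursor marker Gpr17, the progenitor marker Hes5 and the neuron markers Rbfox3, Dcx, Snap25, Syt1 and Nefl passed the FPKM filter only through Ctx-NPCs.

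**Figure D5:**
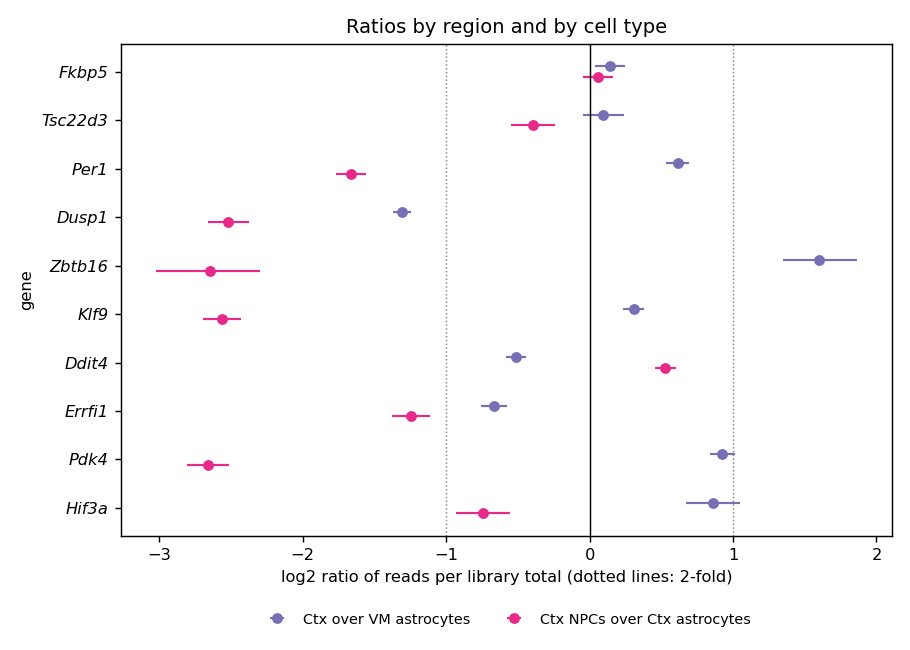
Log2 ratios of the 10 genes for Ctx-astrocytes over VM astrocytes and for Ctx-NPCs over Ctx-astrocytes, with exact 95% intervals that cover counting error only and dotted lines at 2-fold. Zbtb16 lies at 1.60 in the first and -2.64 in the second, whereas Fkbp5 lies near 0 in both (0.14 and 0.06).

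Over the 5 libraries, the highest level exceeded the lowest 1.48-fold for Fkbp5, 1.89-fold for Tsc22d3, 2.92-fold for Ddit4, 4.99-fold for Hif3a and 5.19-fold for Per1. The range was wider for Zbtb16 (6.29-fold), Errfi1 (7.15-fold), Klf9 (7.56-fold), Pdk4 (8.5-fold) and Dusp1 (18.4-fold).

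Genes of like pattern were sought for Fkbp5 and Tsc22d3, by the root mean square difference of centred log2 CPM over the 5 libraries among 12535 transcripts. The nearest to Fkbp5 were Exoc5 (0.0392), Acy1 (0.0410) and Esf1 (0.0596), and the nearest to Tsc22d3 were Stradb (0.0380), Zfp85 (0.0434) and Slc22a5 (0.0551). None of these is a member. The distance between Fkbp5 and Tsc22d3 was 0.544, and the member nearest to Tsc22d3 was Ddit4, at 0.369. These distances describe 5 libraries with 1 sample each.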

How the data were processed

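mRNA-seq of 5 libraries was read from the deposited tables. According to the study's methods, the authors trimmed low-quality reads, mapped them with STAR to GRCm38/mm10 and counted RefSeq exons with HTSeq-count. The submitters' processing notes name mm9 and bcl2fastq 1.8.4, and the tables hold no coordinates. The deposited values per transcript are whole read counts without normalization. The deposited FPKM divide each count by transcript length and library total, and were recomputed to within a relative difference of 4.09e-05. No library pair was identical.

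Gene places and promoter windows are from RefSeq on GRCm38.p6, through which 19997 of 20178 transcripts were paired with symbols. A gene place is the span of the gene and not of the counted transcript. RefSeq lists up to 8 transcripts for a member (Tsc22d3), whose reads were not told apart. Ratios were taken on reads per library total after adding 0.5 reads, scaled to library size. Intervals are exact (Clopper-Pearson, 95%) and allow for counting error alone, because 1 library per condition gives no estimate of variation between cultures. They take each read as independent, which PCR copies of 1 molecule are not. A gene was counted as higher or lower at 2-fold where either library had FPKM above 1. Conditions had 1 library each, so no test was run.

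The members and lists were chosen with earlier results of these data known. Named besides the members are Nr3c1, Nr3c2, Hsd11b1, Hsd11b2, Fkbp4 and Sgk1, Nr4a2 and Foxa2 as a label check, and in each other list of known targets or inputs the 3 largest log2 ratios of VM-NF over VM-C. A gene that the rule names is not reported here. For Fkbp5 and Tsc22d3 the 3 nearest patterns are named, among transcripts of at least 5 CPM in at least 1 library. Markers, Ergic1, Arntl and genes at 0 reads or that passed a filter through 1 library were named after their values were seen. Lists held 16 of 17 clock genes and 13 of 14 microglial markers. Alternatives were TMM (edgeR 4.0.16), DESeq2 1.42.0 size factors, upper-quartile scaling, 5 reads added, FPKM above 1 in both libraries or no filter, and a 1.5-fold cutoff. The calculations were tested on simulated counts. Python 3.11.15, scipy 1.17.1 and R 4.3.3 were used.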

Additional observations from a re-analysis of the deposited data

How the results depend on the processing

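Of 200 member values under the alternatives, 174 moved by less than their counting interval, 26 moved by more, 0 of those past 2-fold reversed, and the largest move was 0.185 on the log2 scale. Only Fkbp5 in Ctx-NPCs over Ctx-astrocytes turned its sign under another scaling. For the same comparison the median log2 ratio of the 10 genes was -1.64 with TMM, -1.63 with DESeq2 size factors and -1.62 with upper-quartile scaling, against -1.45. At 1.5-fold, 1 gene was lower in VM-NF over VM-C and 1 higher in VM-C over VM astrocytes (0 each at 2-fold), 4 were higher in VM-NF over VM astrocytes (0 at 2-fold), and 4 were higher and 2 lower in Ctx-astrocytes over VM astrocytes (1 each at 2-fold). Fewer genes pass the stricter cutoff by its construction. Of all transcripts, 2.57% were higher at 1.5-fold in VM-NF over VM astrocytes. No such share was taken for the other comparisons, so their 1.5-fold counts are no result about the genes. No replicate could be left out, and depth limits only counting error. No paired analysis was possible because each group has 1 library and the result comes from no test.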

Other observations

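Other known glucocorticoid targets also stood lower in the library labelled neural progenitor cells. In Ctx-NPCs over Ctx-astrocytes, 16 of 25 tested genes of that list were lower by 2-fold and 4 higher, beside 17.9% of transcripts lower and 20.1% higher. The median log2 ratio was -1.14, against 0.19 for all transcripts. Of the lower genes, Fam107a, Angptl4, Plin4, Sult1a1 and Rasd1 passed the FPKM filter only through Ctx-astrocytes. Plin4 had 247 reads in Ctx-astrocytes and 5 in Ctx-NPCs. The share of higher genes is no larger than that of all transcripts, and the higher genes included Cdkn1c (113 and 2086 reads), Gpd1 (564 and 1105) and Sgk1 (1574 and 4067). Fkbp4, the co-chaperone that Fkbp5 opposes, was higher in Ctx-NPCs by a log2 ratio of 1.93, while Nr3c1 was lower by -1.06 (-1.15 to -0.97).

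Clock genes were lower there as well, 8 of 15 by 2-fold with 1 higher (Arntl), beside 17.9% and 20.1% of transcripts, and a median of -1.42. Npas2 passed the FPKM filter only through Ctx-astrocytes. Dbp had 3120 reads in Ctx-astrocytes and 66 in Ctx-NPCs, and Nr1d1 had 5379 and 131. The labels give no time of collection, and its part in these values was not tested.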
